A study of Homo sapiens with 5 samples.

Results

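The regions described here are replication origins that lie close to the ends of human chromosomes. They were taken from 4 lists made in EJ30, a human bladder carcinoma cell line: ini-seq 2 origins after a reaction of 3 h, ini-seq 2 origins after 15 min, and peaks of short nascent strand sequencing (SNS-seq) in the size fractions 0.5 to 2 kb and 2 to 4 kb. In ini-seq 2, nuclei from EJ30 cells held in late G1 phase with mimosine started replication in cytosolic extract of HeLa cells with Br-dUTP. Copied DNA became heavy on one strand (HL), unreplicated DNA stayed light (LL), and the efficiency of an origin is HL/(HL + LL). All 4 lists come from this one line without any further genetic or drug comparison, and the input library of EJ30 genomic DNA was not used here. An interval was counted as terminal if its centre lay within 1 Mb of either end of an autosome on hg38. The rule selected 1490 of 23905 origins at 3 h (6.23%), 563 of 10181 at 15 min (5.53%), 6690 of 147657 peaks in the 0.5 to 2 kb fraction (4.53%) and 8412 of 184966 in the 2 to 4 kb fraction (4.55%). The rest of the same autosomes held 22118, 9392, 138782 and 173493 calls, respectively. The distance of 1 Mb is a round limit. The 104 origins in the last 50 kb inside it had a mean efficiency of 0.867 and 39.4% of them were called at 15 min, and the 128 in the first 50 kb outside had 0.856 and 28.9%.

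Replication origins are the sites at which the replicative helicase is loaded in G1 phase and activated in S phase. Human origins have no strict consensus sequence, but are frequent in GC-rich DNA, at CpG islands, beside gene starts and near motifs that can fold into G-quadruplexes (G4). Chromosome ends carry telomeric repeats, followed inwards by duplicated subtelomeric blocks and then, on many arms, by gene-dense and GC-rich DNA in which minisatellites, that is, tandem repeats with units longer than those of microsatellites, are common. Short repeated DNA is difficult to align, and only uniquely aligned reads entered these lists. The effect of mappability was not tested.

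The sequences below give an impression of these origins. The first set holds the central 150 bases of the 5 terminal 3-h origins with the highest efficiency and of the origin nearest to an end, on the plus strand of hg38. Capitals mark a complete G4 motif, defined as 4 runs of at least 3 G (or C, for the other strand) separated by 1 to 7 bases. Each of these 6 intervals held a G4 motif somewhere, but in 3 of them it lay outside the central bases.
ZBTB46, intron, chr20:63830526-63830675: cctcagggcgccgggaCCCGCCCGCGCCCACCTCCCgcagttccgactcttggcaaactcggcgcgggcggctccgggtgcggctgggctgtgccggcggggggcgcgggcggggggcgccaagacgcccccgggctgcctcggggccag
TPPP, gene start, chr5:693426-693575: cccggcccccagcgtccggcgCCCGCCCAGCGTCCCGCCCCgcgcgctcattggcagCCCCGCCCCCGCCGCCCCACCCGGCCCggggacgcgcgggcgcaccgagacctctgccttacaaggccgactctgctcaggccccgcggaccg
DIP2C, exon, chr10:689126-689275: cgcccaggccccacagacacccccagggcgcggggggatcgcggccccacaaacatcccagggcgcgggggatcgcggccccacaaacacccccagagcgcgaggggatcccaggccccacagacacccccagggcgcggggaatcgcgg
KANK1, exon, chr9:504876-505025: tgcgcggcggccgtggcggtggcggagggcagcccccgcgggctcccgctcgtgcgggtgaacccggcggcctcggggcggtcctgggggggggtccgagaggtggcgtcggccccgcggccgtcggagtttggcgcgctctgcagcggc
WDR90, gene start, chr16:649376-649525: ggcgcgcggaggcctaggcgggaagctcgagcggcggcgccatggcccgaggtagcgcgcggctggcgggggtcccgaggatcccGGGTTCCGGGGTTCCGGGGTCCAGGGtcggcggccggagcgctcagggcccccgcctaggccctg
ANHX, gene start, chr12:133235876-133236025: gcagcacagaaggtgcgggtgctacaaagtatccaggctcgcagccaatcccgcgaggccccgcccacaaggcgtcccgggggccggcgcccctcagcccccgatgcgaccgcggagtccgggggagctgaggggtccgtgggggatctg

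The second set shows 210 bases from the 3 terminal 3-h origins with the longest tandem repeats, again on the plus strand of hg38. A tandem repeat was counted where the sequence matched itself at 80% or more of 100 consecutive bases after a shift of 10 to 100 bases. Capitals mark the first 51, 21 and 41 bases, the shift at which the stretch matched itself best, which can span more than one copy of the repeated unit.
GRK1, intron, chr13:113730193-113730402: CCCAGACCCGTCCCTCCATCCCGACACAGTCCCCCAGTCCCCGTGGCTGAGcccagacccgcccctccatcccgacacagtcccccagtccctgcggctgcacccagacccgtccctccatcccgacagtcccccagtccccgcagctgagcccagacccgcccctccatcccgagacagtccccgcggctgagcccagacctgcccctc
TCF25, exon, chr16:89907708-89907917: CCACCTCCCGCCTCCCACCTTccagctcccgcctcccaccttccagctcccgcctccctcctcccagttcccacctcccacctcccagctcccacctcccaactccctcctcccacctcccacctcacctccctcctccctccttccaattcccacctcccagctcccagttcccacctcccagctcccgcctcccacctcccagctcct
Outside genes, nearest gene CPNE7, chr16:89603820-89604029: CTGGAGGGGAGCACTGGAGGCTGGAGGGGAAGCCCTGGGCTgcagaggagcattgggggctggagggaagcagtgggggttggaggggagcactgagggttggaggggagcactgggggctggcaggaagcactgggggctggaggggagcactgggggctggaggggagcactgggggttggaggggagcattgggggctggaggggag

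Origins were several times denser near chromosome ends than in the rest of the same autosomes, in all 4 lists. At 3 h there were 40.0 origins per Mb of terminal sequence and 8.13 per Mb elsewhere, a ratio of 4.92, and at 15 min 15.1 and 3.45 per Mb, a ratio of 4.37. SNS-seq peaks numbered 180 against 51.0 per Mb in the 0.5 to 2 kb fraction (ratio 3.52) and 226 against 63.8 per Mb in the 2 to 4 kb fraction (ratio 3.54). The difference was tested with the 22 autosomes as blocks: the log2 ratio of terminal to remaining density was taken for each autosome and its sign was flipped at random 100000 times. The mean log2 ratio was 1.97 ± 1.26 at 3 h (SD, n = 22 autosomes), positive on 21 of them (two-sided permutation test, Benjamini-Hochberg adjusted p = 7e-05). It was 1.72 ± 1.26 at 15 min (21 of 22, permutation test, adjusted p = 0.00012), 1.49 ± 1.21 in the smaller SNS-seq fraction (20 of 22, adjusted p = 0.00011) and 1.55 ± 1.21 in the larger (20 of 22, adjusted p = 8.7e-05). Chromosome 14 had a negative log2 ratio in every list, −1.55 at 3 h, and chromosome 13 had the highest 3-h value, 4.14. Each list is 1 map, so these p-values describe the spread among chromosomes and not among experiments.

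Without regard to GC content, the rise was steeper in ini-seq 2 at 3 h than in SNS-seq. The log2 ratio at 3 h exceeded that of the 0.5 to 2 kb fraction by 0.47 ± 0.27 (SD, n = 22, positive on 21, permutation test, adjusted p = 7e-05) and that of the 2 to 4 kb fraction by 0.42 ± 0.45 (17 of 22, adjusted p = 0.00063). It exceeded the 15-min value by 0.25 ± 0.58, a difference that did not pass the test (15 of 22, permutation test, adjusted p = 0.074). This excess was 0.40 within 2 Mb of the ends (permutation test, adjusted p = 0.0031), and it passed the test without chromosome 11 (0.28) or 22 (0.30). Nearly every terminal 3-h origin had SNS-seq signal close by: 1487 of 1490 (99.8%) lay within 5 kb of a peak, compared with 97.6% of all autosomal 3-h origins. The difference to the rest of each autosome averaged 2.57 ± 1.59 percentage points (21 of 22, permutation test, adjusted p = 7e-05), in a region where peaks themselves were denser. It was 1.25 points within 0.5 Mb of the ends and 3.32 points where peaks of both fractions were required, neither past the test.

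The density did not peak at the very end. The outermost 0.1 Mb held 12.8 origins per Mb at 3 h, compared with 6.19 per Mb found over 10 Mb from any end. From there the density rose to 41.7 per Mb at 0.4 to 0.5 Mb and to between 45.5 and 50.6 per Mb in the bins from 0.5 to 1 Mb. It was as high at 1 to 2 Mb (52.6 per Mb), and then declined to 33.2 at 2 to 3 Mb, 24.6 at 3 to 4 Mb, 19.4 at 4 to 5 Mb and 11.6 at 5 to 6 Mb. Across autosomes the spread was wide, with 13.2 ± 15.6 per Mb in the outermost 0.1 Mb (SD, n = 21) and 52.2 ± 27.9 at 1 to 2 Mb (n = 22). Against only the sequence 1 to 10 Mb from the ends, the mean log2 ratio was 0.88 at 3 h (permutation test, adjusted p = 0.011) and 0.98 at 15 min (adjusted p = 0.0067). Those of the SNS-seq fractions were 0.61 and 0.55 and did not pass the test.

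**Figure D1:**
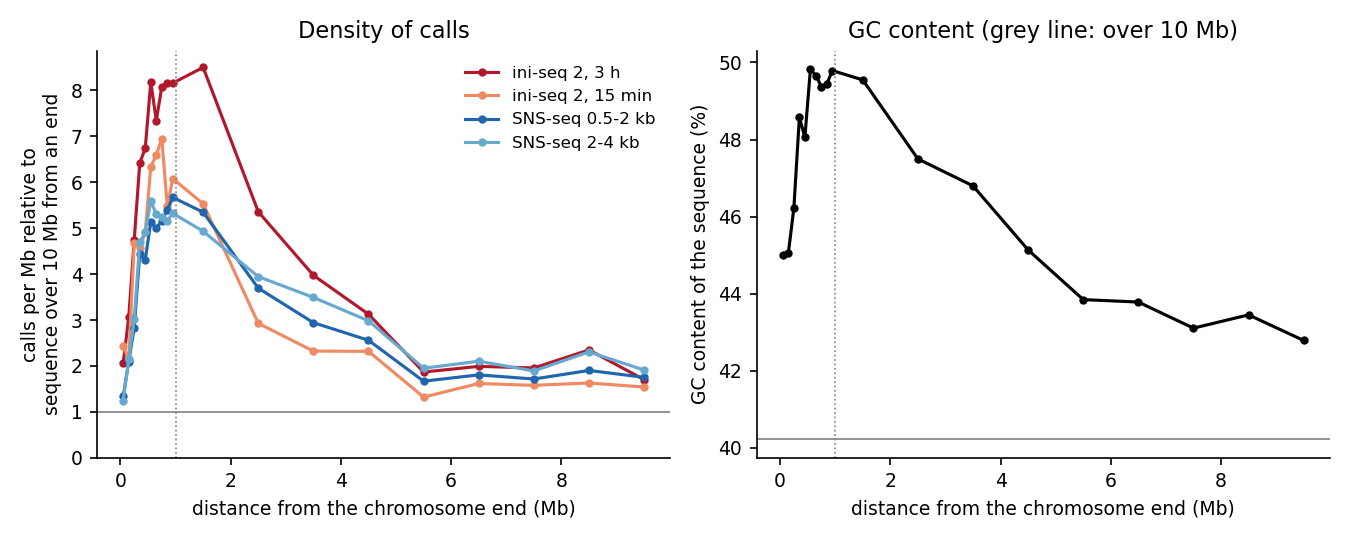
Density of calls (left, calls per Mb divided by the density over 10 Mb from any end) and GC content of the sequence (right, %) against distance from the chromosome end in Mb, pooled over the autosomes. The dotted line marks the 1 Mb limit. The 3-h density rises from 12.8 per Mb in the outermost 0.1 Mb to 52.6 per Mb at 1 to 2 Mb, and the GC content follows a similar course.

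The ends differed greatly from each other. Of 44 autosome ends, 39 have sequence in the assembly, and the p arms of chromosomes 13, 14, 15, 21 and 22 have none. All 39 held at least one 3-h origin, with a median of 30 per end and quartiles of 12 and 57. The 3 ends with the most were 19p with 123, 7p with 94 and 10q with 91, and the 10 richest ends held 826 of the 1490 origins (55.4%). At the other extreme 3p held 1 origin, and 4q, 9p and 14q held 2 each. At 15 min the median was 10 per end, 22q held the most with 46, and 3p, 4q and 14q held none. The nearest 3-h origin lay at a median of 180 kb from the end, from 39.4 kb on 12q to 905 kb on 1p.

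Rich ends were not the ends of most efficient origins. On 7p the mean efficiency was 0.846 ± 0.0376 (SD over 94 origins) and 15 of its origins (16.0%) were called at 15 min, whereas on 16p, with 77 origins, the efficiency was 0.904 ± 0.0477 and 41 (53.2%) were called. On 19p the values were 0.866 ± 0.0447 and 40 of 123 (32.5%), and on 10q 0.849 ± 0.0430 and 18 of 91 (19.8%). In contrast, the 4 origins on 10p had a mean efficiency of 0.975 and all were called at 15 min. The 9 ends with 10 or fewer origins together held 34, with a mean efficiency of 0.915 ± 0.0533 (SD) and 19 of them (55.9%) in the high class, the most efficient of 3 classes of equal size over the whole list. The 13 ends with 50 or more held 989, with a mean of 0.864 ± 0.0491 and 207 (20.9%) in the high class. As a description over the 39 ends, Spearman's rho was −0.63 between the number of 3-h origins and their mean efficiency. The ends share one library, and in the poorest of them the mean rests on 1 to 4 origins. The ends also differed in the kind of origin. A coding gene start lay in 47.1% of origins at ends with 10 or fewer, and in 21.2% at ends with 50 or more. Mean GC content of the origins was 76.4% on 10p and 66.2% on 7p. Neither trait was matched here.

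**Figure D2:**
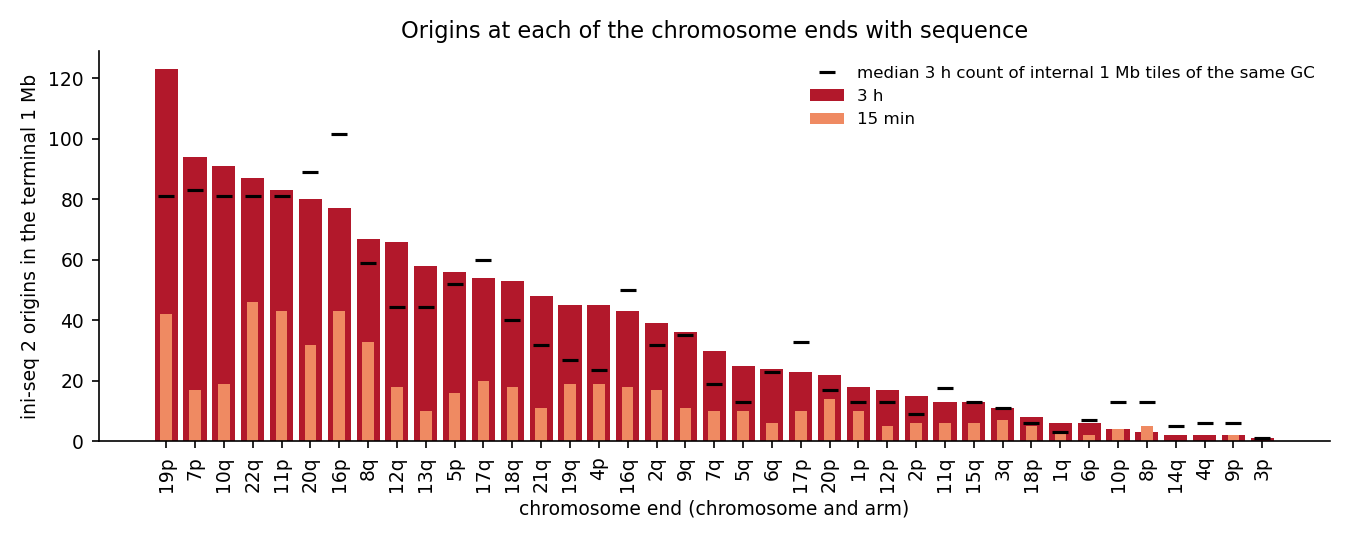
Number of ini-seq 2 origins in the terminal 1 Mb of each of the 39 ends with sequence, for the 3-h list (wide bars) and the 15-min list (narrow bars), ordered by the 3-h count. Black marks give the median 3-h count of internal 1 Mb tiles whose GC content differs by at most 1 percentage point. Counts run from 123 on 19p to 1 on 3p, and 24 ends lie above their mark while 12 lie below.

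Terminal sequence was richer in GC and in genes than the rest. Its 37.3 Mb, 1.35% of autosomal sequence, had a GC content of 48.2% compared with 40.9%, and 17.2 protein-coding gene starts per Mb compared with 6.79. Of 1 kb windows, 13.5% had a GC content over 60%, against 1.75% elsewhere. GC content and 3-h count went together over the 39 ends (Spearman's rho 0.93, as a description). Set against internal 1 Mb tiles of the same GC content, 24 ends held more 3-h origins than the median tile and 12 held fewer. 19p exceeded all 17 of its tiles, and 16p, the end of highest GC content (57.3%), held 77 origins where its 8 tiles had a median of 101.5.

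When 1 kb windows of equal GC content were compared, terminal windows no longer held more ini-seq 2 origins. Without regard to GC content, a 3-h origin touched 8.58% of terminal windows and 1.51% of the others. Within GC bins of 2 percentage points, the difference between terminal and other windows was −0.53 ± 1.78 percentage points (SD, n = 22 autosomes), which did not pass the test (permutation test, adjusted p = 0.21). With origins and windows within 0.5 Mb of the ends the difference was −1.20 points and passed it. At 15 min, occupancy at equal GC was lower by 1.31 ± 0.94 points, on all 22 autosomes (permutation test, adjusted p = 7e-05). Among windows of 65 to 70% GC, for example, 66.1% of terminal and 68.7% of other windows held a 3-h origin, while 21.9% and 37.4% held a 15-min origin, the widest gap at 15 min among the bins of 5 points. The order turned at 75 to 80% GC, where terminal windows were higher at 3 h (82.3% against 71.7%) and at 15 min (84.7% against 76.1%), over 124 terminal windows. At 3 h they were also higher at 40 to 45% (0.214% against 0.106%), 45 to 50% (0.635% against 0.535%) and 50 to 55% GC (3.01% against 2.83%). SNS-seq peaks went the other way from 15-min origins. Their difference at equal GC was 3.22 ± 4.56 points in the 0.5 to 2 kb fraction (16 of 22 positive, permutation test, adjusted p = 0.0058). In the 2 to 4 kb fraction it was 5.36 ± 5.94 points (18 of 22, permutation test, adjusted p = 0.00086). Matching the GC content of the surrounding 100 kb as well ended the last 3 calls, with differences of −0.47, 0.0082 and 0.50 points. Within 0.5 Mb of the ends the SNS-seq differences were −0.11 and 0.62 points and did not pass the test either.

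Terminal 3-h origins were slightly less efficient than other origins. The mean efficiency was 0.868 ± 0.0502 (SD over 1490 origins) against 0.878 ± 0.0527 over 22118, within a range that the caller limits to 0.8 to 1. The difference averaged −0.0119 ± 0.0155 over autosomes (SD, n = 22, negative on 17, permutation test, adjusted p = 0.0033). By class, 360 (24.2%, exact 95% Clopper-Pearson interval 22 to 26.4%) were of high efficiency, compared with 32.9% of all autosomal origins, 535 (35.9%) were of medium and 595 (39.9%) of low efficiency. At equal GC content of the origin the difference was −0.0116 ± 0.00759 and negative on 21 of 22 autosomes, with chromosome 3 the exception (permutation test, adjusted p = 7e-05). Both differences were far smaller than the spread among origins.

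The difference in efficiency depended on the sequence it was set against and on the arm. Origins at 1 to 2 Mb had a mean efficiency of 0.856 and those at 2 to 3 Mb 0.854, against 0.886 over 10 Mb from any end. Set against only the sequence 1 to 10 Mb from the ends, the difference was 0.0012, and within 0.5 Mb of the ends it was −0.0024, neither past the test. At equal GC the same settings gave −0.0034 (permutation test, adjusted p = 0.041) and −0.0059 (adjusted p = 0.026). With ends of the p arm alone it was 0.0165 before and −0.0019 after matching GC, and passed the test in neither case. Each autosome counted equally in these means, although its p-arm end held from 1 origin (3p) to 123 (19p). Matching the GC of the surrounding 100 kb together with that of the origin left −0.0037, which did not pass the test. Pooled over origins, the 597 on 17 p-arm ends had a mean efficiency of 0.872, below the 0.878 of the rest. The 893 on 22 q-arm ends had 0.865. The difference between the arms was not tested.

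**Figure D3:**
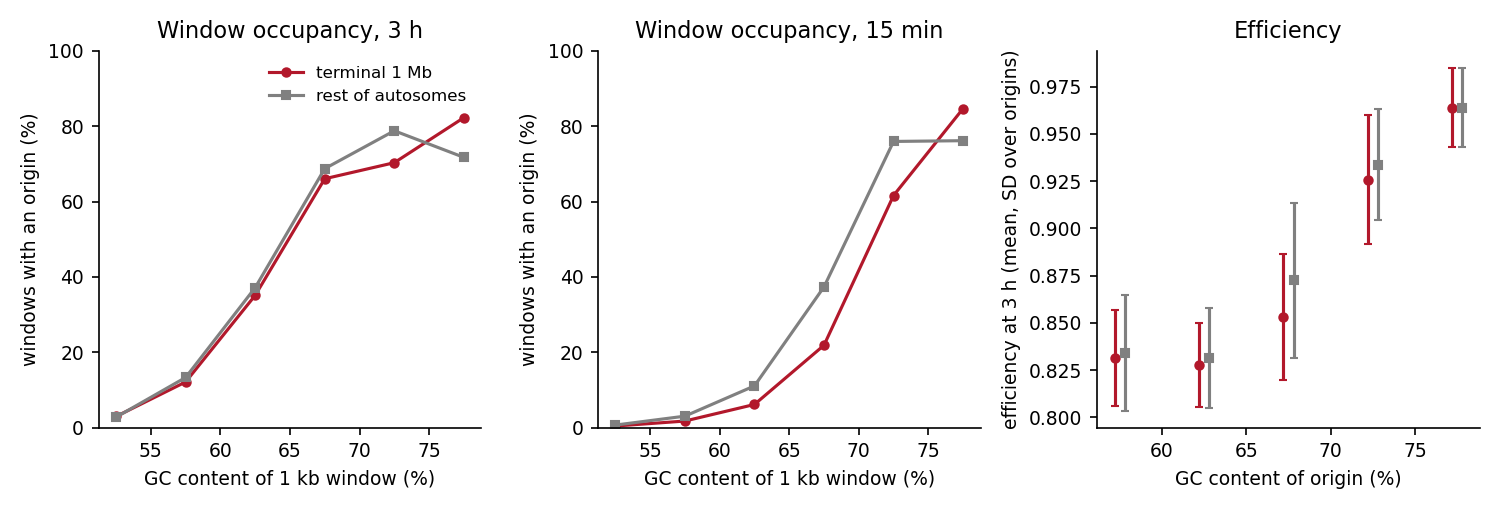
Share of 1 kb windows that hold an origin at 3 h (left) and 15 min (middle) against the GC content of the window, and mean efficiency of 3-h origins against their own GC content (right, bars are SD over origins, bins with at least 30 terminal origins). Terminal sequence is in red and the rest of the autosomes in grey. At 65 to 70% GC the 3-h shares are 66.1% and 68.7%, the 15-min shares 21.9% and 37.4%, and the mean efficiencies 0.853 and 0.872.

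Of the 1490 terminal origins, 538 (36.1%, exact 95% interval 33.7 to 38.6%) overlapped an origin called at 15 min, compared with 39.9% of all autosomal 3-h origins. The difference in this recall averaged −5.22 ± 15.3 percentage points (SD, n = 22) and did not pass the test (permutation test, adjusted p = 0.16). At equal GC it was −6.20 ± 11.1 points (negative on 15 of 22, permutation test, adjusted p = 0.017), and at equal efficiency 2.88 ± 8.85 points (permutation test, adjusted p = 0.17). Without matching, recall was lower by more, and past the test, within 2 Mb of the ends (−9.27 points) or where 50% of the origin had to be covered (−8.08 points). It was 3.55 points against only the sequence 1 to 10 Mb from the ends and 7.82 points with p-arm ends alone, neither past the test. The latter counts each autosome equally. Pooled over origins, recall at p-arm ends was 38.5%, below the 40.1% of the rest. At equal efficiency the difference passed within 2 Mb (3.71 points), with a 15-min origin within 5 kb (8.73 points) and without chromosome 14 (4.08 points). Chromosome 14 held only 2 terminal 3-h origins, with 0 called at 15 min. The difference at equal GC depended on the rule for recall. It was 0.46 points, and no longer past the test, where a 15-min origin anywhere within 5 kb counted, and −0.55 points against only the sequence 1 to 10 Mb from the ends. With p-arm ends alone it was −5.19 points and with the surrounding GC matched as well −2.97 points, also not past it. The rule of 5 kb can count a neighbouring origin, and 15-min origins were denser near the ends (15.1 against 3.45 per Mb).

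In the outermost 0.1 Mb 56.2% of only 32 origins were called at 15 min, and in the next 0.1 Mb 30.6% of 72. Mean efficiencies were 0.882 and 0.874 in these bins, and 0.880 at 0.2 to 0.3 Mb. The differences among bins were not tested. Conversely, 544 of the 563 terminal 15-min origins (96.6%) overlapped a 3-h origin, close to the 95.4% of all autosomal 15-min origins. The 19 without one had a median length of 400 bp and Z-scores, the deposited measure at 15 min, from −1.97 to 2.10. Over all terminal 15-min origins the Z-score differed from the rest by −0.050 ± 0.361 (n = 21 autosomes, permutation test, adjusted p = 0.53), and at equal GC by −0.15 ± 0.23 (negative on 16 of 21, adjusted p = 0.013). The latter did not pass the test within 0.5 Mb of the ends (−0.18) or with the surrounding GC matched as well (−0.048).

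Gene starts near the ends were covered by an origin more often than elsewhere. Of 641 terminal starts of protein-coding genes, 389 (60.7%) lay in a 3-h origin and 315 (49.1%) in a 15-min origin, compared with 43.9% and 27.4% of all autosomal coding starts. The differences were 18.6 ± 14.1 percentage points at 3 h (SD, n = 21 autosomes, positive on 20, permutation test, adjusted p = 8.7e-05) and 22.7 ± 15.3 points at 15 min (19 of 21, adjusted p = 7e-05). Within 0.5 Mb of the ends the 15-min difference was 10.4 points and did not pass the test. GC content was not matched here. Each gene counted with a single start, the upstream boundary of its annotated span, so further starts inside the gene were not counted.

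Seen from the origins, gene starts were the smaller share. Only 336 of the 1490 (22.6%) contained a coding gene start, against 31.7% of all autosomal 3-h origins, a difference to the rest of −9.78 ± 10.7 points (SD, n = 22, negative on 17, permutation test, adjusted p = 0.00086). This difference was −2.0 points and not past the test within 0.5 Mb of the ends. A further 59 (3.96%) lay at starts of long non-coding RNA genes, against 4.25% of the rest. An exon of a coding gene without its start was touched by 491 (33.0%), against 30.03% of the rest. Elsewhere in gene bodies lay 335 (22.5%, against 18.3%), and outside genes 269 (18.1%, against 15.2%). The differences in these 4 shares were not tested.

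Origins over gene starts were then compared apart from the other origins. The 336 over coding starts had a mean efficiency of 0.912 ± 0.0459 (SD over origins), compared with 0.909 ± 0.0446 over 7138 in the rest, a difference of 0.0052 ± 0.0185 that did not pass the test (n = 21 autosomes, permutation test, adjusted p = 0.24). Of these 336, 84.8% were called at 15 min, against 72.1% elsewhere, a difference of 11.9 ± 11.0 points (positive on 19 of 21, permutation test, adjusted p = 0.00047). That difference was 4.63 points and did not pass the test within 0.5 Mb. Length and GC content were not matched here. Terminal origins over starts had a median length of 1500 bp against 1000 bp and a mean GC content of 70.3% against 69.1%. The 1154 terminal origins without a coding start had a mean efficiency of 0.855 against 0.863, a difference of −0.0108 ± 0.0145 (negative on 17 of 22, permutation test, adjusted p = 0.0037). That one was 0.00053 within 0.5 Mb. Their recall of 21.9% against 24.9% gave a difference of −3.42 ± 13.1 points, which did not pass the test (permutation test, adjusted p = 0.26). The difference between the groups was not itself tested.

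**Figure D4:**
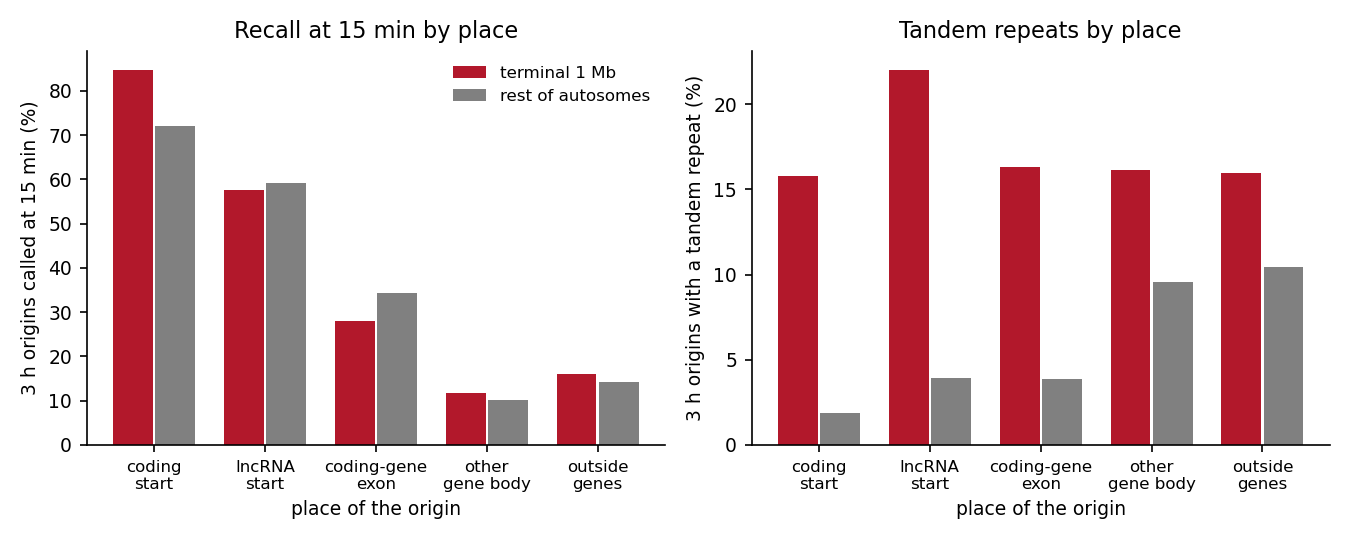
Share of 3-h origins called at 15 min (left, %) and share with a tandem repeat (right, %) by the place of the origin, for terminal origins (red) and the rest of the autosomes (grey), without error bars. Recall over coding starts is 84.8% and 72.1%, and tandem repeats over coding starts are at 15.8% and 1.88%.

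Tandem repeats were 3.09 times as frequent in terminal origins as in others. Such a repeat was found in 243 of 1490 (16.3%, exact 95% interval 14.5 to 18.3%), compared with 5.97% of all autosomal 3-h origins, and in 5.28% of the rest. The difference averaged 9.36 ± 7.15 percentage points (SD, n = 22, positive on 19, permutation test, adjusted p = 7e-05) and 10.1 ± 7.07 points at equal GC (19 of 22, adjusted p = 7e-05). The shift of best match had a median of 42 bp (quartiles 32 and 62) and the stretches a median of 236 bp and a maximum of 785 bp. Repeats made up 3.96% of the bases of terminal origins and 1.49% of those of the rest. Terminal origins were also longer, with a mean of 1277 bp against 966 bp, a difference of 282 ± 356 bp (positive on 18 of 22, permutation test, adjusted p = 0.0017), which was −11.2 bp within 0.5 Mb of the ends. In the central 300 bp of each origin, repeats were found in 6.64% of terminal and 2.87% of other origins. This limits the part of length but does not remove it, since a shorter origin enters whole.

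The repeats were not confined to one kind of place. Over coding starts, 15.8% of terminal origins held one, against 1.88% elsewhere, and outside genes 16.0% against 10.5%. With distance from the end the share went from 6.25% in the outermost 0.1 Mb to between 12.5% and 22.9% in the other bins of 0.1 Mb, 14.9% at 1 to 2 Mb and 3.17% over 10 Mb away. Terminal origins with and without a repeat had mean efficiencies of 0.863 ± 0.0420 and 0.869 ± 0.0516 (SD over 243 and 1247 origins), and 37.9% and 35.8% of them were called at 15 min. The telomere unit TTAGGG, on either strand, occurred at least once in 340 of the 1490 origins (22.8%) and in 20.4% of the rest. Runs of 2 or more units were found in 3 terminal origins (0.20%) and in 0.054% of the rest. These shares were not tested or matched for length, and terminal origins were longer (mean 1277 bp against 966 bp).

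**Figure D5:**
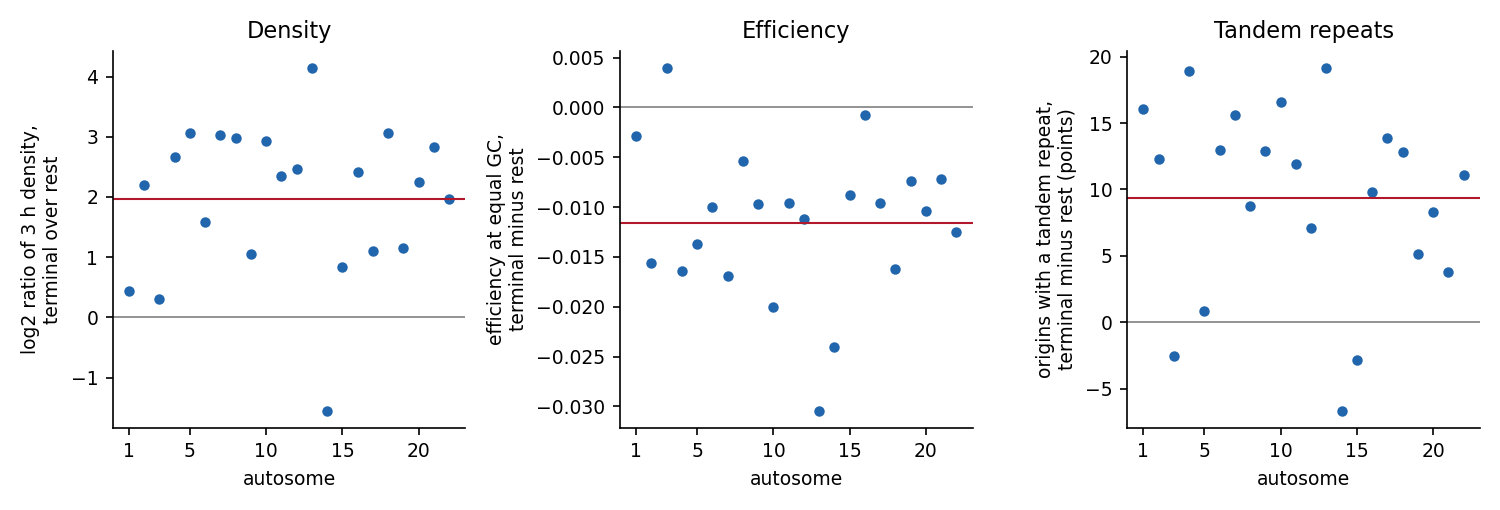
Difference between terminal sequence and the rest for each autosome: log2 ratio of 3-h density (left), efficiency at equal GC (middle) and share of origins with a tandem repeat in percentage points (right). Each point is an autosome and red lines are the means of 1.97, −0.0116 and 9.36. Density is higher on 21 of 22 autosomes, efficiency lower on 21 and tandem repeats more frequent on 19.

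The difference in the share of origins with a G4 motif did not pass the test. The motif was found in 1118 terminal origins (75%) and 71% of all autosomal 3-h origins, with a difference of 2.27 ± 9.33 points before (adjusted p = 0.28) and 1.28 ± 9.21 points after matching GC (n = 22, permutation test, adjusted p = 0.53). Within 2 Mb of the ends the differences were 4.98 and 4.94 points and passed the test. The GC content of terminal origins was 67.6% at 3 h and 74.5% at 15 min, against 66.9% and 74.0% elsewhere. The differences were 0.55 ± 0.94 points (positive on 16 of 22, permutation test, adjusted p = 0.019) and 0.47 ± 0.99 points (adjusted p = 0.058). The 3-h difference was 0.27 points within 2 Mb and 0.40 points at q-arm ends alone, and did not pass the test in either.

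Fewer terminal origins met a CpG island criterion (GC content over 50% and an observed to expected CpG ratio over 0.6, over the whole interval). It was met by 517 (34.7%, exact 95% interval 32.3 to 37.2%) and by 54.6% of the rest. The difference was −18.3 ± 14.7 percentage points (SD, n = 22, negative on 20, permutation test, adjusted p = 7e-05), and −19.9 ± 11.0 points at equal GC (21 of 22, adjusted p = 7e-05). Without matching it was −6.02 points and did not pass the test within 0.5 Mb of the ends. Length was not matched, and terminal origins were longer (mean 1277 bp against 966 bp). The surroundings of terminal 3-h origins were richer in GC, at 54.9% over 100 kb against 48.7%.

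The most efficient terminal origins were short or of moderate length and very GC-rich. Efficiencies of 1, the highest possible, were listed for an intron of ZBTB46, a zinc finger factor of dendritic cells (chr20:63830401-63830800, GC 79.2%, 15-min Z-score 1.62), and for the start of TPPP, a tubulin-binding protein (chr5:693301-693700, GC 82.5%, 15-min Z-score 2.11). They were followed by an exon of DIP2C (chr10:688901-689500, efficiency 0.994), an exon of KANK1, an ankyrin repeat protein of the cell cortex (chr9:504501-505400, 0.992), and the start of WDR90 (chr16:648901-650000, 0.992). All 5 were also called at 15 min, as were 87.8% of all terminal origins of the high class. The origin nearest to an end, 39.4 kb from the tip of 12q, covered the start of the homeobox gene ANHX (chr12:133235301-133236600) with an efficiency of 0.925 and a 15-min Z-score of −1.20.

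The highest 15-min Z-scores belonged to exons of RHBDF1, an inactive rhomboid protein (chr16:72101-72900, 2.32), and ZMYND11, a reader of methylated histone (chr10:134701-136100, 2.28), and to the start of TFDP1, a partner of E2F factors (chr13:113584401-113585600, 2.17). The 3-h origins that overlapped them had efficiencies of 0.881, 0.985 and 0.954. The order by Z-score thus differed from the order by efficiency. The origins with the longest tandem repeats had efficiencies of 0.850 in an intron of the rhodopsin kinase GRK1 (chr13:113729801-113730700, stretch 785 bp), 0.854 in an exon of TCF25 (chr16:89907301-89908800, 775 bp) and 0.857 at 6155 bp from CPNE7 (chr16:89603401-89604800, 727 bp). None of these 3 was called at 15 min, while 37.9% of all terminal origins with a repeat were.

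A list of 66 genes known to lie near chromosome ends gave a view by function, and 55 of them had their start within 1 Mb of an end. A 3-h origin covered 40 of the 55 starts and a 15-min origin 34, beside the 60.7% and 49.1% of all terminal coding starts. Among genes of DNA replication and repair, the start of POLE, the catalytic subunit of the leading strand polymerase, lay in an origin of efficiency 0.988 (chr12:132686701-132688100, GC 76.4%, 15-min Z-score 1.46). The start of FANCA, of the Fanconi anaemia core complex, had 0.957, MCM3AP 0.922 and TYMS, thymidylate synthase, 0.917. In contrast, RTEL1, a helicase of telomere maintenance, RAD52 and the DNA glycosylase gene MPG had no origin over their starts in either list. An uncovered start leaves origins elsewhere in the gene uncounted. The start of ZMYND11 was uncovered, for example, although a 3-h origin of efficiency 0.985 overlapped the 15-min origin at its exon.

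Other genes of the list spanned the whole range of efficiency. Starts in the high class included ATG4B of autophagy with 0.985, SDHA of the respiratory chain with 0.974, ING5 with 0.967, NFATC1 with 0.963, GAS6 with 0.960, NPRL3 with 0.957 and PDGFA with 0.930. BRD9 and TRIP13, a divergent pair, shared one origin of 0.934. SHANK3, a scaffold of the synapse, had 0.896 and HRAS 0.885, and HRAS was not covered at 15 min. POLRMT, the mitochondrial RNA polymerase, had 0.841, TUBB3 0.834, CHMP2A 0.824 and SOX18 0.823, all in the low class, yet the starts of POLRMT and SOX18 were covered at 15 min.

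Among the 15 starts without a 3-h origin were those of the alpha globin genes HBA1 and HBA2, which are near-identical copies, and of TBP, TRIM28, MC1R, BSG, VPS53 and ADNP2. The starts of TFDP1, DIP2C and FLT4 lay outside any 3-h origin but inside one called at 15 min, with Z-scores of 2.17, 1.63 and −0.65. For TFDP1 and DIP2C the called intervals differed between the lists, and a 3-h origin lay next to the start. The list was chosen with earlier results of these data known, so its counts are a description.

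The longest terminal 3-h origins were of low efficiency. The interval over CEND1, SLC25A22 and PANO1 on 11p spanned 15900 bp (chr11:786701-802600, efficiency 0.829, one 15-min origin inside with a Z-score of −0.65). On 8q, intervals of 11200 bp over BOP1, of ribosome biogenesis, and SCX, a tendon factor, and of 11000 bp over the start of GPT, alanine aminotransferase, had efficiencies of 0.834 and 0.827. The former was not called at 15 min and the latter had a Z-score of −1.93. The 3 held tandem repeats of 195, 199 and 305 bp, and 16.3% of all terminal origins held one. A longer interval has more room for a repeat, and the share among origins of similar length was not taken.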

How the data were processed

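EJ30 nuclei and nascent strands were sequenced by the authors. Per the paper's methods, the authors aligned reads with Bowtie2 to hg38, kept unique reads, removed duplicates and called origins from windows of 100 bp in which HL exceeded LL by at least 2 on the log2 scale, joined up to 500 bp apart and kept at an efficiency of at least 0.8. The authors' deposited 3-h value is a fraction, the efficiency, although its heading calls it a Z-score. The deposited 15-min value is a score, a Z-score over that list. The 3-h list pools 2 biological replicates, and the number at 15 min is not given in the sources used here. SNS-seq peaks were called with MACS2 against EJ30 genomic DNA and were deposited as positions only. The lists hold no counts, so the depth behind each interval is unknown, and intervals of shares (exact Clopper-Pearson) cover counting error only. Unique alignment can lose duplicated subtelomeric sequence, and mappability was not tested.

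Positions, hg38 sequence and GENCODE 44 were joined with pandas 2.3.3 and pysam 0.24.0 in Python 3.11.15, tested with scipy 1.17.1 and numpy 2.4.6, and drawn with matplotlib 3.10.9. For each autosome a value was taken over terminal intervals and over the rest, with 0.5 calls added in log2 density ratios. For equal GC, each value was taken relative to the mean of non-terminal items of all autosomes in the same bin of 2 percentage points, and for equal efficiency in bins of 0.01. Density used sequence without assembly gaps. Differences were tested by 100000 sign flips (two-sided, smallest possible p 1e-05), and p-values were adjusted over 35 tests, of which 25 passed the threshold of 0.05 (largest adjusted p 0.019). Of the 35, 7 were added after seeing the data: CpG islands, coding starts at 15 min, and origins with and without a coding start. Overlap means 1 bp or more. On simulated data the repeat search found 200 of 200 planted repeats and called 0 of 500 plain sequences. It misses copies that differ in length.

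Named sites were the 5 most efficient terminal origins, those nearest to an end, the 3 highest 15-min Z-scores, the 3 longest origins, the 3 longest tandem repeats, the 3 ends with most and the 3 with fewest origins (ties included), and a list of 66 genes. The members, lists and tests were chosen with earlier results of these data known. Alternatives changed the distance from the end, the arm, the reference sequence, the GC matching and the overlap rules, and left out each autosome.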

Additional observations from a re-analysis of the deposited data

Results flagged for a closer look

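Terminal enrichment differed between methods that mapped origins in the same cell line. The log2 ratio of terminal to remaining density was higher in ini-seq 2 at 3 h than in SNS-seq by 0.47 for the 0.5 to 2 kb fraction and by 0.42 for the 2 to 4 kb fraction, each by a test of the difference itself over the 22 autosomes. GC content was not matched in this comparison. In 1 kb windows of equal GC content the order was the other way. Terminal occupancy differed by −0.53 points at 3 h, not past the test, and by 3.22 and 5.36 points in the SNS-seq fractions. The latter 2 did not pass once the GC of the surrounding 100 kb was matched as well. The cause was not tested.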

How the results depend on the processing

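Of 166 alternatives, 128 kept direction and side of the threshold, 22 lost the call, 10 gained it and 6 changed sign, and of 616 values with 1 autosome left out, 611 were unchanged in both and 5 gained the call. The tests paired terminal sequence with the rest, or lists with each other, on the same autosome. No test over replicate experiments was possible because each condition is 1 list. The cause of the changes between settings was not tested. Within 0.5 Mb of the ends, calls were lost for efficiency (−0.0024), Z-score at equal GC (−0.18), SNS-seq support (1.25 points), 2 to 4 kb occupancy (0.62), origins over coding starts (−2.0), CpG islands (−6.02), starts covered at 15 min (10.4) and recall over starts (4.63). The sign changed there for 0.5 to 2 kb occupancy (−0.11), length (−11.2 bp) and efficiency away from starts (0.00053), and 3-h occupancy passed (−1.20). Within 2 Mb, GC of 3-h origins lost the call (0.27), while the excess of the 3-h over the 15-min log2 ratio (0.40), GC of 15-min origins (0.56), recall (−9.27), recall at equal efficiency (3.71), recall away from starts (−5.74) and G4 motifs (4.98, at equal GC 4.94) passed. Against 1 to 10 Mb, SNS-seq densities (0.61, 0.55) and recall at equal GC (−0.55) lost the call and efficiency changed sign (0.0012). With p-arm ends, efficiency changed sign over equally counted autosomes (0.0165). At equal GC, efficiency (−0.0019) and recall (−5.19) lost the call there. With q-arm ends GC of 3-h origins lost it (0.40). Matching the surrounding GC too ended calls for efficiency (−0.0037), Z-score (−0.048), recall (−2.97) and occupancy at 15 min (−0.47) and in SNS-seq (0.0082, 0.50). With recall counted within 5 kb, that at equal GC changed sign (0.46) and that at equal efficiency passed (8.73), and with 50% of the origin covered, recall passed (−8.08). SNS-seq support by both fractions was 3.32 points and not past it. With 1 autosome left out, the excess of 3 h over 15 min ran from 0.18 to 0.30 and passed without chromosome 11 or 22, GC of 15-min origins from 0.38 to 0.57 (passed without 1 or 21), and recall at equal efficiency from 2.12 to 4.08 (passed without 14). Restriction to 0.5 Mb leaves fewer origins, and without counts no interval reflects read depth.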
